A study of Rattus norvegicus with 32 samples.

Results

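Transcripts of 5 genes of the alveolar type II cell were followed in rat lung after hemorrhage: the surfactant protein genes Sftpc, Sftpb and Sftpa1, the protease gene Napsa and the mucin gene Muc1. They were taken by gene symbol from the array annotation, where each had 1 probe, and so made up 5 of the 5022 genes that could be named from 1 symbol. Lung RNA of 32 samples was set against a common pool of organ RNA from untreated rats on 2-colour spotted arrays, 1 array a sample. Male Sprague-Dawley rats of 280 to 300 g were fitted under isoflurane with arterial catheters and an abdominal telemetry device, and after 7 to 10 days of recovery 40% of the estimated blood volume was drawn. Lungs of bled rats were taken at 1, 3, 6, 16, 24, 48 and 72 h, with 5 samples at 6 h and 3 at each other time. Sham rats (6 samples) carried the same instruments and were not bled, and control rats (3 samples) were neither instrumented nor bled. No group carried a transgene or a drug treatment by the labels, and the comparisons addressed how the lung responds over time to blood loss.

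Each value below is the log2 ratio of lung RNA to the organ pool, centred on the median of its array and averaged over the 2 spots of a probe. Of 13056 spots on an array 12151 to 12895 carried a value, and precision is limited by how many arrays each group had. The pool held lung among other organs, so a ratio is a level relative to that mixture and levels of different genes are not set against each other as RNA amounts. The labels number no animals, so p-values measure the spread between these samples, which may be technical. The labels do not settle which dye carried which RNA, so the direction was read from lung genes above and liver genes below the pool. The time at which sham lungs were taken is not clear from the labels.

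Ranks of the members relative to the pool were read first. The direction of the ratios was itself read from lung genes, and sham replicate 2, with low surfactant ratios, was left out. High ranks of surfactant genes are therefore no test of the lung label. On 30 arrays Sftpc had the highest mean ratio of 5984 probes measured on at least 28 of them, Sftpa1 ranked 2 and Sftpb ranked 7. Napsa and Muc1 ranked 4651 and 4137, below the pool on average, although Napsa is a gene of type II cells. On 16 h replicate 3 liver genes were high, with Hp (haptoglobin) at 4.62, while Sftpc was 3.64, Sftpa1 2.28, Sftpb 0.60, Napsa -2.23 and Muc1 -2.08. The last 3 of these lay below all of the other 30 arrays. Sham replicate 2 had low surfactant ratios beside high ones of liver genes, with Hp at 5.12 and Sftpc at -3.48, Sftpb at -2.38 and Sftpa1 at -1.49. The median over 24 liver genes was 2.08 on 16 h replicate 3 and 2.75 on sham replicate 2, against -1.0 to 0.49 on the others. Values below rest on the 30 other arrays, and a value with all 32 arrays is given where these 2 arrays end a call.

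Type II cells line the alveolus beside the flat type I cells, make surfactant and store it in lamellar bodies. Surfactant is a film of phospholipid and protein that lowers surface tension at the air-liquid interface and keeps alveoli from collapsing at the end of expiration. SP-B, from Sftpb, and SP-C, from Sftpc, are small hydrophobic proteins that spread the lipid film, and SP-B is essential for breathing after birth in mice and humans. SP-A, from Sftpa1, is a collectin that binds microbes and takes part in tubular myelin. Napsin A, from Napsa, is an aspartic protease that helps to process the SP-B precursor. Mucin 1, from Muc1, is a transmembrane mucin of the apical surface of many epithelia.

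The transcription factor NKX2-1 is a known regulator of the surfactant protein genes in lung, so their promoters were read for its motif. The RefSeq table of build GRCr8 held promoters of Sftpb, Sftpa1 and Muc1. The windows of Sftpb and Sftpa1 are shown because these genes have the calls described below and a promoter in the table. Each is the 250 bases ahead of the start used in that table, 5′ to 3′, with motif matches in capitals. Sftpb lies at chr4:105917338-105917587 on the plus strand, and the annotated gene span begins inside this window. Sftpa1 lies at chr16:17042014-17042263 on the plus strand.
Sftpb: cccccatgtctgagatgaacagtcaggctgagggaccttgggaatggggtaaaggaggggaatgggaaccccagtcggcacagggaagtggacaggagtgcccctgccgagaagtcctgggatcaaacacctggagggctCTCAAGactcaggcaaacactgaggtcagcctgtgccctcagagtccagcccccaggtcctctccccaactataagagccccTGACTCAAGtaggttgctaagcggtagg
Sftpa1: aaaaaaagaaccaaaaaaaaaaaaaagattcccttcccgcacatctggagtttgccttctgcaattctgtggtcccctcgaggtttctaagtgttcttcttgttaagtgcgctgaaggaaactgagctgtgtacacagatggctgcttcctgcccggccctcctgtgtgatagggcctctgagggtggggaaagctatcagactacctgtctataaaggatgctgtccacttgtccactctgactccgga
Both strands were searched for CTCAAG, a core bound by NKX2-1, for TNTTTAC, a FOXA motif, and for TGANTCA, the AP-1 motif. The Sftpb window held CTCAAG at 110 to 105 and at 25 to 20 bases before the start and TGANTCA at 28 to 22 bases, where the AP-1 match overlaps the second CTCAAG. The letters of the 3 motifs are not in the windows of Sftpa1 and Muc1. The whole Muc1 window (chr2:176933500-176933749, plus strand) lies inside the annotated gene span, which begins at 176933312. Of 33469 rat promoter windows of the same length, 13.3% held CTCAAG, 11.6% TNTTTAC and 6.34% TGANTCA. These matches are a description of sequence only.

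Sftpb was lower in bled lungs than in sham lungs, and most clearly at 48 and 72 h. Its ratios at 48 h were 1.83, 1.65 and 1.80, and at 72 h they were 2.14, 1.29 and 1.29. Sham arrays read 3.89, 2.95, 2.99, 2.50 and 3.03. All 6 arrays of the 48 and 72 h groups lay below the lowest sham array. Relative to sham the log2 change was -1.32 ± 0.32 (SE) at 48 h (limma, adjusted p = 0.0419, 3 arrays against 5) and -1.50 ± 0.32 at 72 h (adjusted p = 0.00822, 3 against 5). These changes correspond to 0.402 and 0.353 of the sham ratio. In whole lung RNA, fewer type II cells and less RNA per cell cannot be told apart.

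Sftpb had no call at any single time before 48 h. At 1 h the ratios were 2.59, 2.33 and 2.16, at 3 h 2.56, 1.68 and 3.19, and at 6 h 2.15, 2.39, 2.30, 1.71 and 2.50. At 16 h they were 3.00 and 2.52, and at 24 h 1.89, 2.08 and 2.35. Of the 22 bled arrays 21 were below the sham mean and 17 below the lowest sham array, the exception to the first being 3 h replicate 3. Only 5 of the 22 were below the lowest control array (1.76). The shares of all probes with counts like these were not computed. Every array lay below every sham array at 6, 24, 48 and 72 h, as did 2.99%, 6.68%, 8.07% and 9.18% of all probes at those times. The change was -0.86 ± 0.27 at 6 h (adjusted p = 0.119) and -0.97 ± 0.32 at 24 h (adjusted p = 0.083). Averaged over the 7 times it was -0.90 ± 0.22 (adjusted p = 0.0241, 22 arrays against 5), and the joint test of any time against sham gave an adjusted p of 0.0417.

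Single arrays decided several of these calls. The 48 h call was lost without sham replicate 1 (-1.11, adjusted p = 0.0927), 3 (-1.35, 0.0791) or 6 (-1.33, 0.0721) and without 48 h replicate 1 (-1.35, 0.0883), 2 (-1.26, 0.132) or 3 (-1.34, 0.101), and also with quantile normalization (-1.35, 0.0869) and with limma's trend and robust options (0.0638). The 72 h call was lost without 72 h replicate 2 (-1.36, adjusted p = 0.0727) or 3 (-1.36, 0.0782) and with quantile normalization (-1.10, 0.119). The call on the mean of 7 times was lost without sham replicate 1 (-0.69, adjusted p = 0.125), 3 (-0.93, 0.0543) or 6 (-0.91, 0.0575) and with quantile normalization (-0.94, 0.0651). With all 32 arrays, sham replicate 2 included, Sftpb changed by -0.41 at 48 h (adjusted p = 0.885) and by -0.59 at 72 h (adjusted p = 0.713). Over the mean of 7 times it changed by -0.089 with all 32 arrays (adjusted p = 0.939). The joint call was lost in 14 of 30 omissions of 1 array, namely of sham replicates 1, 3, 4 and 6, control replicate 2, 1 h replicates 2 and 3, 6 h replicates 2 and 3, 16 h replicate 1, 48 h replicates 1 and 3 and 72 h replicates 2 and 3, at adjusted p-values of 0.0519 to 0.0916. It was also lost with quantile normalization (0.136), with the trend and robust options (0.0682), against control (0.187) and with all 32 arrays (0.98).

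Sftpc was lower at 72 h, with no change called at any earlier time. Its ratios were 0.82, 2.74 and 1.27 at 72 h, against 3.26, 3.24, 4.48, 2.22 and 3.08 in sham lungs. Replicates 1 and 3 at 72 h lay below every sham array, and replicate 2 lay among them. The log2 change was -1.65 ± 0.49 (SE, adjusted p = 0.0459, 3 arrays against 5), or 0.319 of the sham ratio. The 48 h arrays, at 1.55, 3.08 and 2.54, gave -0.87 ± 0.49 (adjusted p = 0.385).

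The 1 h arrays read 3.14, 3.50 and 4.26, the 3 h arrays 4.41, 3.57 and 3.04, and the 6 h arrays 1.85, 1.85, 3.29, 2.60 and 3.60. The 16 h arrays read 3.18 and 3.85 and the 24 h arrays 3.66, 2.97 and 3.52. Only 2 of the 6 h arrays lay below the sham range over these 5 times. The change at 3 h was 0.42 ± 0.49 (adjusted p = 0.629), which became -0.56 with quantile normalization, and at 6 h it was -0.62 ± 0.42 (adjusted p = 0.427). The spread of Sftpc was wide, with a residual SD of 0.71 that exceeded that of 86.6% of the 6112 probes tested. The 72 h call was lost without sham replicate 1 (adjusted p = 0.0711), 3 (0.0738), 4 (0.0962) or 6 (0.0609), without 72 h replicate 1 (0.165) or 3 (0.221), with values required in only 2 groups (0.0508) and with limma's trend and robust options (0.0598), at changes of -1.25 to -1.69. With all 32 arrays the 72 h change was -0.53 (adjusted p = 0.802).

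**Figure D1:**
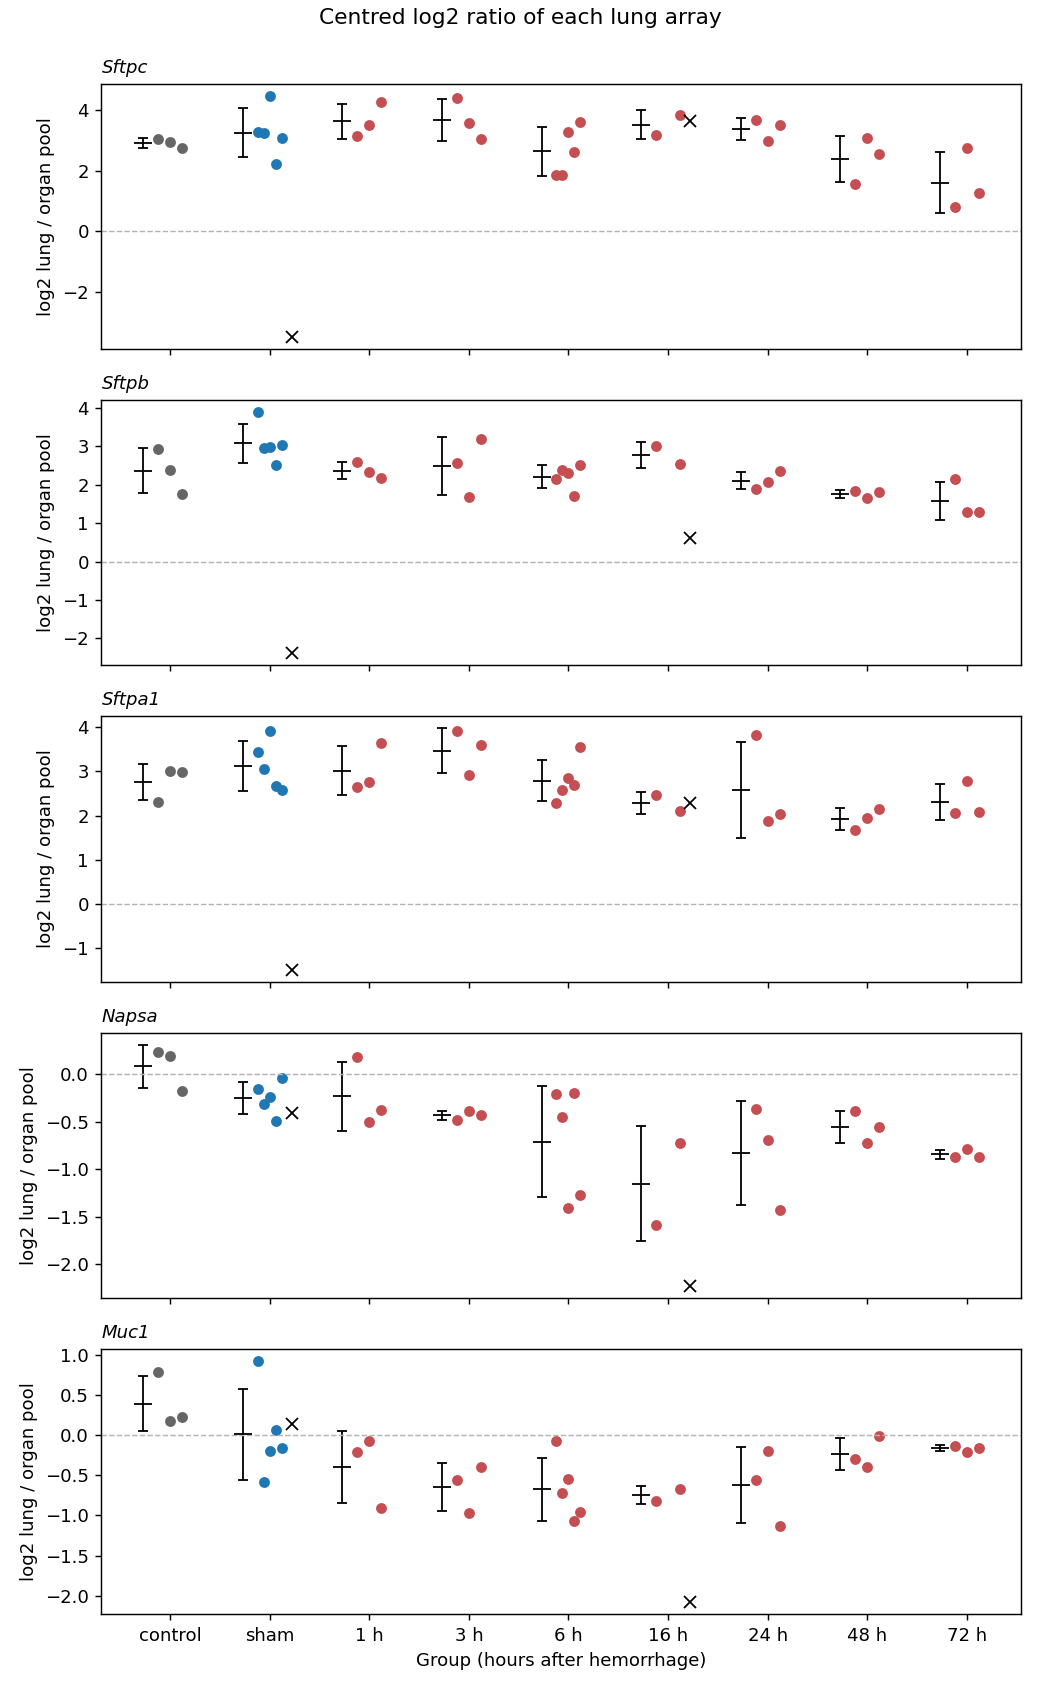
Centred log2 ratio of lung RNA to the organ pool for each member gene, 1 point an array, by group in order of time with control and sham at the left. Bars are group means ± SD over the arrays used, and crosses are the 2 arrays with liver signal, which are left out. Sftpb lies between 1.29 and 2.14 on the 72 h arrays and at 2.50 or above on the sham arrays, while Napsa and Muc1 lie near or below 0 on the bled arrays.

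Sftpa1 was lower late than early after bleeding. Its late arrays (24, 48 and 72 h, n = 9) spanned 1.67 to 3.82 with a median of 2.07, against 2.29 to 3.91 with a median of 2.86 on the early arrays (1, 3 and 6 h, n = 11). All late arrays except 24 h replicate 1 (3.82) and 72 h replicate 2 (2.78) lay below the lowest early array. The difference of late over early was -0.83 ± 0.24 (SE, adjusted p = 0.0381). Sftpc gave -0.86 ± 0.31 (adjusted p = 0.0849) and Sftpb -0.54 ± 0.20 (adjusted p = 0.0941) in the same contrast, and neither was called. Sftpc passed with quantile normalization (-0.90, adjusted p = 0.049) and without 72 h replicate 2 (-1.05, 0.0395), and Sftpb without 3 h replicate 2 (-0.67, 0.0272). The Sftpa1 call was lost in 11 of 20 omissions of 1 array, namely of 1 h replicate 3, 3 h replicates 1 and 3, 6 h replicates 3 and 5, 24 h replicates 2 and 3, 48 h replicates 1 and 3 and 72 h replicates 1 and 3, at differences of -0.71 to -0.86 and adjusted p-values of 0.051 to 0.0922. It was also lost with quantile normalization (-0.64, adjusted p = 0.112), with limma's trend and robust options (0.0594) and with all 32 arrays (-0.83, 0.299).

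Against sham, Sftpa1 had no call at any time. At 48 h it read 1.67, 1.94 and 2.15 and at 72 h 2.07, 2.78 and 2.09, against 3.44, 3.04, 3.91, 2.66 and 2.57 in sham lungs. The 48 h arrays all lay below the sham range, as did the 2 arrays of 16 h, where 11.4% of all probes did so. The changes were -1.21 ± 0.39 at 48 h (adjusted p = 0.113), which passed with quantile normalization (-1.44, adjusted p = 0.0462), and -0.81 ± 0.39 at 72 h (adjusted p = 0.216). At 16 h, with 2.45 and 2.11 on 2 arrays, it was -0.84 ± 0.45 (adjusted p = 0.393). The 24 h arrays read 3.82, 1.87 and 2.04, so that replicate 1 stood with the sham arrays and the other two below them.

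The means of Napsa and Muc1 over the 22 bled arrays were lower than their sham means, but no comparison with sham called either gene on 30 arrays. Over 22 bled arrays Napsa ranged from -1.58 to 0.18 with a median of -0.53, against -0.15, -0.31, -0.24, -0.49 and -0.04 in sham lungs. At 16 h its 2 arrays (-1.58 and -0.72) and at 72 h its 3 (-0.88, -0.79 and -0.87) lay below every sham array, as did 11.4% and 9.18% of all probes at those times. Its change was -0.91 ± 0.32 at 16 h (adjusted p = 0.215), -0.60 ± 0.28 at 72 h (adjusted p = 0.203) and -0.43 ± 0.19 over the 7 times (adjusted p = 0.172). Muc1 ranged from -1.13 to -0.01 with a median of -0.47 in bled lungs, against 0.93, -0.58, -0.19, 0.07 and -0.16 in sham lungs. All 22 bled arrays lay below the sham mean of Muc1, and 14 of them lay within the range of the sham arrays. The sham mean was 0.01 and the sham median -0.16, with replicate 1 highest at 0.93. The share of all probes with every bled array below the sham mean was not computed. The change of Muc1 was largest at 16 h, at -0.76 ± 0.33 (adjusted p = 0.31), and was -0.17 ± 0.29 at 72 h (adjusted p = 0.772). Without sham replicate 1 its 72 h change was 0.056 (limma, adjusted p = 0.935).

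With 16 h replicate 3 and sham replicate 2 included, Napsa at -1.24 ± 0.29 (adjusted p = 0.0429) and Muc1 at -1.22 ± 0.31 (adjusted p = 0.0461) were called at 16 h, where 1.72% of probes were. Without both arrays 0.0654% of probes were called at 16 h and the members were not among them. The lowest values of both genes were on 16 h replicate 3.

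The count of members called followed these values. At 1, 3, 6, 16 and 24 h 0 of 5 were called, where 0%, 2.98%, 0%, 0.0654% and 3.52% of all 6112 probes were. The counts of 0 over all probes at 1 and 6 h, from limma, stood beside 667 and 1147 probes at an unadjusted p under 0.05. At 48 h 1 of 5 was called (1.18% of probes), at 72 h 2 of 5 (5.87%), over the mean of the 7 times 1 of 5 (3.4%) and in the joint test 1 of 5 (5.66%). In late against early 1 of 5 was called (7.12% of probes). With all 32 arrays 2 of 5 were called at 16 h (1.72% of probes) and 0 of 5 at 48 h (0.13%), at 72 h (3.06%), over the mean (3.87%), in late against early (3.03%) and jointly (2.33%). All comparisons with sham share the same 5 sham arrays.

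**Figure D2:**
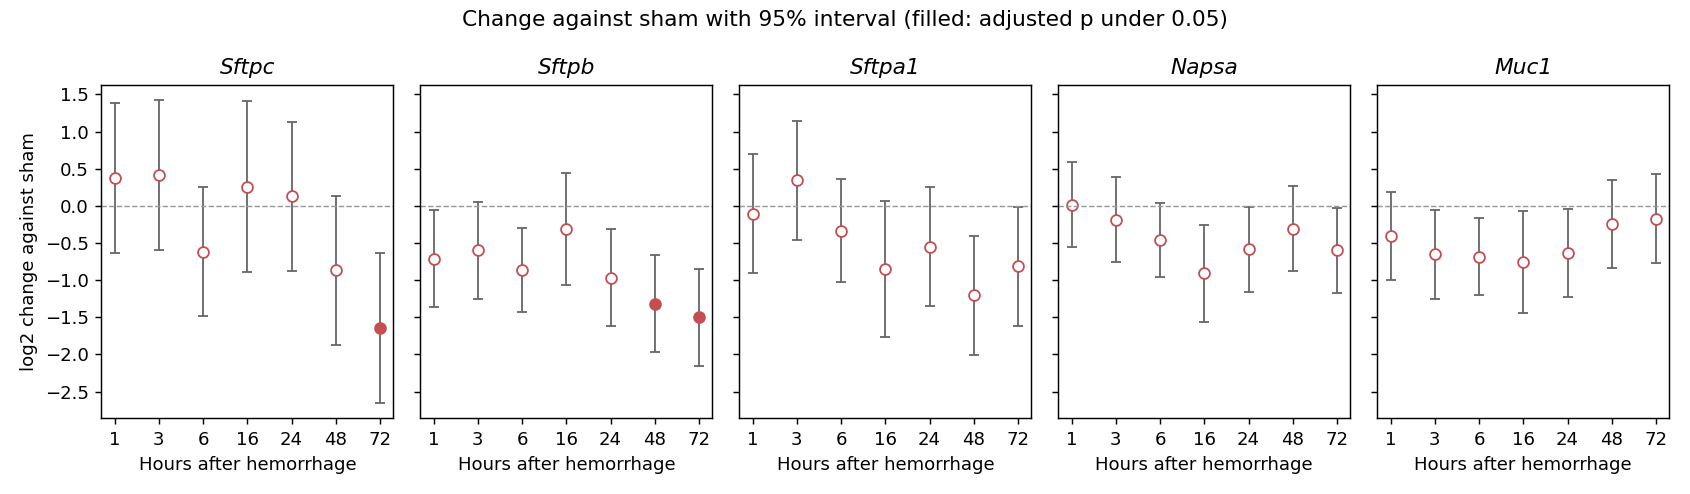
Log2 change of each member against sham at the 7 times after hemorrhage, with 95% intervals from the limma fit on 30 arrays. Filled points have an adjusted p under 0.05: Sftpb at 48 h (-1.32) and 72 h (-1.50) and Sftpc at 72 h (-1.65); the scale is shared by the 5 panels.

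The calls depended on which unbled lungs served as baseline, and sham and control lungs were therefore compared. The means of the surfactant genes were higher, and those of Napsa and Muc1 lower, in sham lungs than in control lungs. Sftpb averaged 3.07 ± 0.50 in sham lungs (SD, n = 5) and 2.36 ± 0.58 in control lungs (SD, n = 3). Napsa averaged -0.25 ± 0.17 in sham lungs and 0.08 ± 0.23 in control lungs, and Muc1 0.01 ± 0.56 in sham lungs and 0.40 ± 0.34 in control lungs. The sham over control difference was 0.72 ± 0.32 for Sftpb, 0.35 ± 0.49 for Sftpc, 0.37 ± 0.39 for Sftpa1, -0.33 ± 0.28 for Napsa and -0.38 ± 0.29 for Muc1. None of the 5 was called (adjusted p = 1.00 for each), nor was any of the 6112 probes by limma (0% called, 291 at an unadjusted p under 0.05). Before adjustment, only Sftpb of the 5 passed 0.05 in the limma fit.

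With control lungs as the baseline, a comparison added after the data were seen, Muc1 and Napsa were called and the surfactant genes were not. Control rats were not instrumented, so bleeding and instrumentation cannot be told apart in this comparison. All 22 bled arrays of Muc1 lay below its lowest control array (0.18), as did those of 1.03% of probes. For Napsa 21 of 22 did (lowest control array -0.18), a count whose share over all probes was not computed. The medians of the unbled sham arrays also lay below these lowest control arrays, at -0.16 for Muc1 and -0.24 for Napsa. Over the mean of 7 times Muc1 fell by 0.89 ± 0.25 on the log2 scale (adjusted p = 0.03) and Napsa by 0.76 ± 0.24 (adjusted p = 0.0458), where 8.07% of probes were called. Muc1 also fell at 6 h (-1.07, adjusted p = 0.0386, 4.14% of probes called) and at 24 h (-1.02, adjusted p = 0.0477, 9.06% called). No member was called at 48 h (0.524% of probes) or 72 h (4.07%). Sftpb changed by -0.18 ± 0.27 over the 7 times (adjusted p = 0.703) and by -0.79 ± 0.35 at 72 h (adjusted p = 0.194). Sftpc changed by 0.07 ± 0.41 over the 7 times (adjusted p = 0.937) and by -1.30 ± 0.55 at 72 h (adjusted p = 0.162).

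Against sham and control lungs together (8 arrays, also added after the data were seen) the calls on Sftpb and Sftpc at 72 h stood and that on Sftpb at 48 h did not. At 72 h Sftpb changed by -1.23 ± 0.29 (adjusted p = 0.0118) and Sftpc by -1.52 ± 0.45 (adjusted p = 0.0367), with 8.97% of probes called. At 48 h Sftpb changed by -1.05 ± 0.29 (adjusted p = 0.0562, 2.27% of probes called), and at 6 h Muc1 was called (-0.83, adjusted p = 0.0346, 6.46% of probes). Over the 7 times Muc1 changed by -0.65 ± 0.17 (adjusted p = 0.00945), Sftpb by -0.63 ± 0.18 (adjusted p = 0.0193) and Napsa by -0.56 ± 0.16 (adjusted p = 0.018), where 19.5% of probes were called. Sftpa1 changed by -0.36 ± 0.22 (adjusted p = 0.242).

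**Figure D3:**
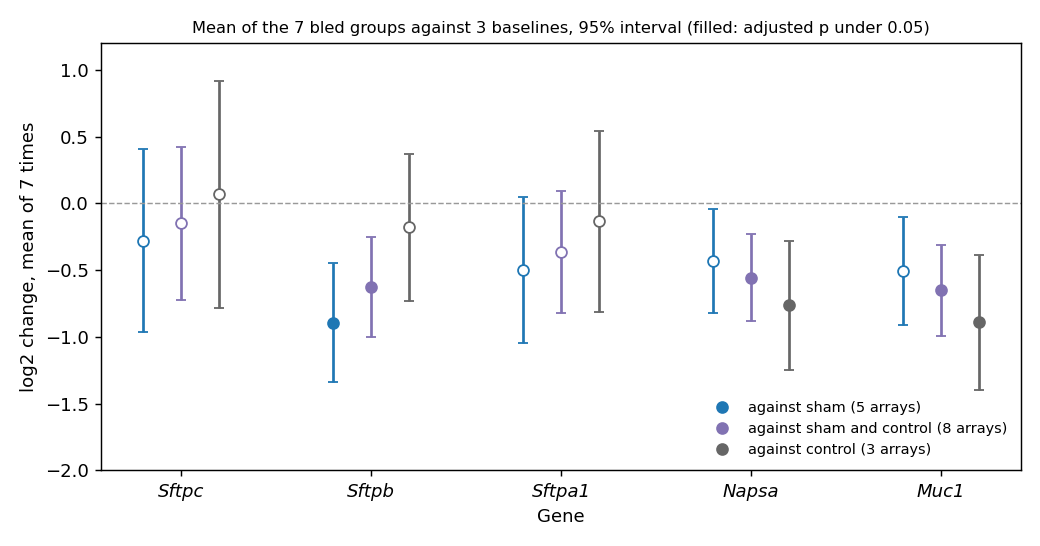
Mean log2 change of the 7 bled groups for each member against sham, against sham and control together, and against control, with 95% intervals from limma. Filled points have an adjusted p under 0.05: Sftpb is called against sham (-0.90) and not against control (-0.18), and Muc1 is called against control (-0.89) and not against sham (-0.51).

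The order of the group means differed between the members. Sftpc and Sftpa1 were highest at 3 h, with means of 3.67 ± 0.69 and 3.47 ± 0.50 (SD, n = 3), and lowest at 72 h (1.61 ± 1.01) for Sftpc and at 48 h (1.92 ± 0.24) for Sftpa1. Sftpb was highest in sham lungs and lowest at 72 h (1.57 ± 0.49). Napsa and Muc1 were highest in control lungs and lowest at 16 h, at -1.15 ± 0.61 and -0.74 ± 0.11 (SD, n = 2). Most neighbours in these orders differed by less than the larger of their SDs. The exceptions among 8 neighbour pairs a gene were 48 h below 24 h for Sftpb, 48 h below 16 h for Sftpa1 and 3 h below sham for Napsa, and Sftpc and Muc1 had none.

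Among the members, Sftpc and Sftpa1 varied together from array to array. Over 30 arrays Pearson's r was 0.63 (two-sided permutation p = 0.0002, adjusted p = 0.002 over 10 pairs) and Spearman's rho 0.57 (permutation p = 0.00113, adjusted p = 0.0113). Without the 2 arrays farthest from the median of Sftpc r was 0.60, and for deviations from the group means it was 0.63. Napsa and Muc1 had r = 0.52 (adjusted permutation p = 0.0175) and rho = 0.38 (adjusted permutation p = 0.095), with r = 0.41 without the 2 farthest arrays and 0.27 within groups. Sftpb and Sftpc had r = 0.36 over all arrays (adjusted permutation p = 0.132) and -0.09 within groups. Values of a pair share their array and the pooled RNA on it. Other genes followed these members more closely, so correlations of this size are not particular to the members. The highest r was 0.83 for Sftpc (with Lyz2), 0.80 for Sftpa1 (Hopx), 0.84 for Napsa (Prrt1) and 0.77 for Muc1 (Vom1r105).

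**Figure D4:**
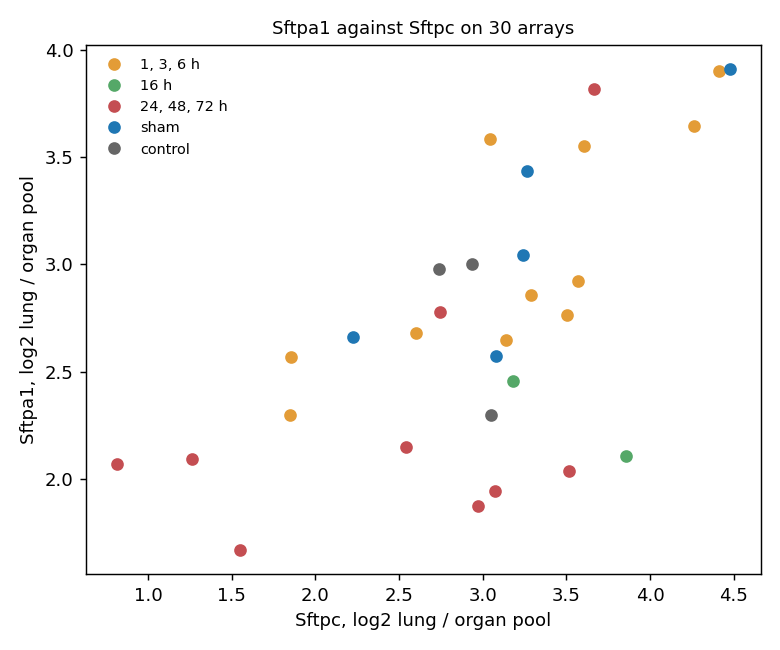
Sftpa1 against Sftpc, both as centred log2 ratios of lung RNA to the organ pool, 1 point for each of 30 arrays. Colours give 1, 3 and 6 h, 16 h, 24, 48 and 72 h, sham and control; most of the 9 late arrays lie at Sftpa1 ratios near 2, and the 2 values rise together over the arrays (r = 0.63).

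Beyond the members, the protease gene Ctsh was called lower than sham at 24, 48 and 72 h. Cathepsin H, its product, is a lysosomal protease that trims the precursors of SP-B and SP-C. Ctsh read 0.14, 0.30 and 0.74 at 24 h, -0.21, 0.10 and 0.26 at 48 h and -0.01, 0.29 and 0.36 at 72 h, against 1.24, 1.36, 1.47, 1.49 and 1.56 in sham lungs and 1.49, 1.49 and 1.51 in control lungs. The bled arrays of these 3 times all lay below all 8 unbled arrays. Both 16 h arrays, at 0.49 and 0.56, did so too, and the 6 h arrays spanned 0.63 to 1.53. Ctsh had no call at 6 or 16 h. Every array lay below every sham array for 11.4%, 6.68%, 8.07% and 9.18% of all probes at 16, 24, 48 and 72 h. The share of probes below all 8 unbled arrays was not computed. Ctsh fell by 1.03 ± 0.20 at 24 h (adjusted p = 0.00648), by 1.37 ± 0.20 at 48 h (adjusted p = 0.0029) and by 1.21 ± 0.20 at 72 h (adjusted p = 0.00175). The late over early difference was -1.12 ± 0.13 (adjusted p = 2.31e-05). Omission of 1 array ended 1 of these calls, at 24 h without 24 h replicate 3 (-0.99, adjusted p = 0.0558). With all 32 arrays the changes were -0.84 at 24 h (adjusted p = 0.0805), -1.18 at 48 h (0.0544) and -1.02 at 72 h (0.0268), and against control the 72 h change was -1.28 (0.00508).

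Pepsinogen C, from Pgc, has also been placed in SP-B processing, and with Napsa and Ctsh it makes 3 processing proteases on the array. It was chosen after its values were seen. Pgc changed by -0.50 ± 0.26 at 48 h (adjusted p = 0.356) and by -0.44 ± 0.26 at 72 h (adjusted p = 0.341), and was not called.

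Of 35 listed surfactant and type II genes 21 were measured, the members included. At 24 h 1 of 21 was lower (Ctsh), where 3.52% of all probes were called, at 48 h 2 (Ctsh and Sftpb, 1.18%) and at 72 h 3 (Ctsh, Sftpb and Sftpc, 5.87%), with 1 higher at 72 h. The higher gene was Cd36, a fatty acid transporter also made by macrophages and endothelium, with 1.07 ± 0.29 (adjusted p = 0.0299). Its call stood in 2 of 8 omissions of 1 array, those of sham replicate 1 and 72 h replicate 1, and the highest adjusted p was 0.219, without 72 h replicate 2. The median change over the list was 0.01 at 1 h, -0.06 at 3 h, -0.47 at 6 h, -0.31 at 16 h, -0.05 at 24 h, -0.31 at 48 h and -0.42 at 72 h, while the median over all probes lay between -0.01 and 0.04 at these times. The lowest of the 7 list medians was at 6 h, where no gene of the list was called. These medians include the members. The array median of the other 16 genes was 0.07 to 0.40 at 6 h, 0.07 to 0.30 at 48 h and 0.29 to 0.39 at 72 h. On the sham arrays it was 0.17 to 0.71, so these ranges overlap that of sham. In late over early Ctsh and Sftpa1 were lower and Car2, a carbonic anhydrase, was higher at 0.57 ± 0.15 (adjusted p = 0.0253), a call lost without 24 h replicate 3 (adjusted p = 0.0588), 48 h replicate 1 (0.0516) or 72 h replicate 2 (0.0541) and with all 32 arrays (0.0956). Against control Cd36 had an adjusted p of 0.0598.

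Other surfactant genes, named after their values were seen, had no call. Sftpd, which encodes the collectin SP-D, changed by -1.21 ± 0.40 at 48 h (adjusted p = 0.128) and by -0.76 ± 0.40 at 72 h (adjusted p = 0.272). Slc34a2, the phosphate transporter of type II cells, changed by -1.59 ± 0.39 at 6 h (adjusted p = 0.0625) and by -0.42 ± 0.45 at 72 h (adjusted p = 0.623). Nkx2-1, the factor of the motif above, changed by -0.39 ± 0.25 at 48 h (adjusted p = 0.473) and by 0.45 ± 0.25 at 72 h (adjusted p = 0.307).

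**Figure D5:**
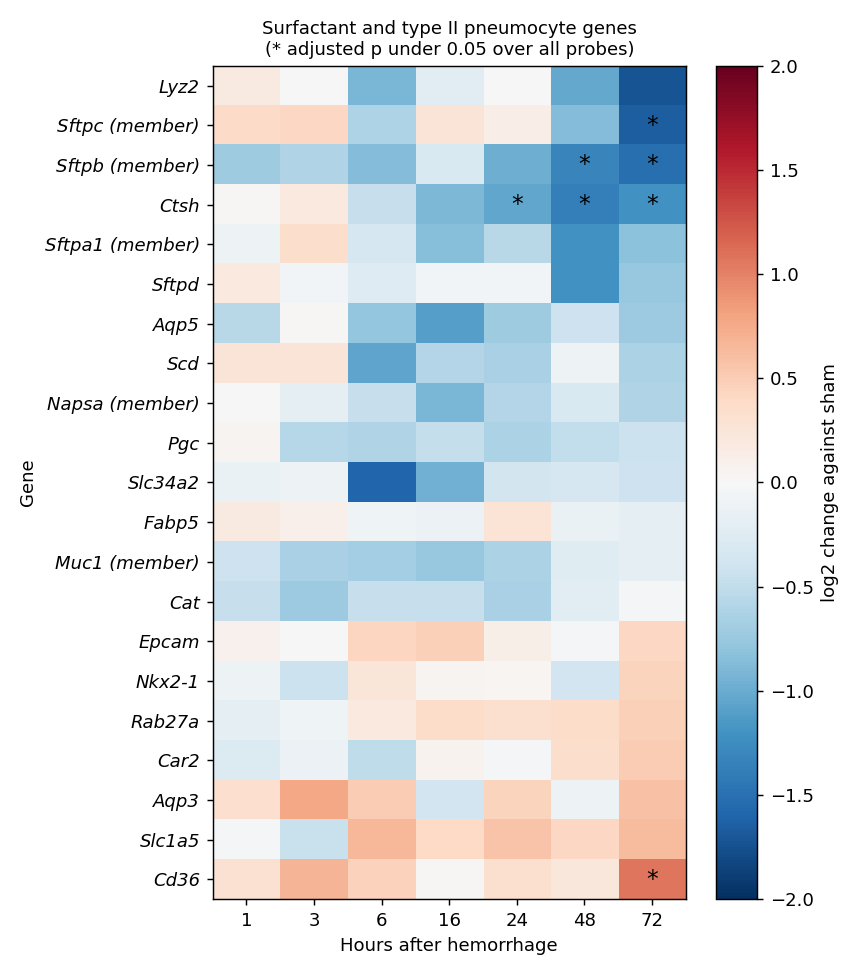
Log2 change against sham of the 21 measured genes of the surfactant and type II pneumocyte list (down the page, ordered by the 72 h change) at 7 times after hemorrhage (across). Stars mark an adjusted p under 0.05 over all probes: Ctsh at 24, 48 and 72 h, Sftpb at 48 and 72 h, Sftpc at 72 h and Cd36 at 72 h.

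Acaca was the 1 gene of surfactant lipid synthesis with a call against sham. Of 20 measured, 0 were called at 1 to 48 h and 1 was lower at 72 h, with a median change of 0.01 at 72 h. These shares are near those of all probes, 0% to 3.52% up to 48 h and 5.87% at 72 h. The lower probe was of Acaca, acetyl-CoA carboxylase, at -1.08 ± 0.23 (adjusted p = 0.00759), while the other Acaca probe stood at 0.28 (adjusted p = 0.503). Without 72 h replicate 3 the first probe changed by -0.89 (adjusted p = 0.0957). Of 20 transcription factors of lung epithelium 2 fell at 24 h: Foxa1, which binds surfactant promoters with NKX2-1, by 1.54 ± 0.42 (adjusted p = 0.0418), and Jun, an AP-1 gene, by 0.93 ± 0.24 (adjusted p = 0.0317). At 72 h Fos (-1.0 ± 0.25, adjusted p = 0.0221) and Jund (-1.37 ± 0.34, adjusted p = 0.0218), which also encode AP-1 subunits, were lower. The list medians were -0.26 at 24 h and -0.10 at 72 h, and 3.52% and 5.87% of all probes were called. The Foxa1 call stood in 2 of 8 omissions of 1 array and the Jun call in 3, with adjusted p-values of up to 0.278 for Foxa1 (-1.10 without 24 h replicate 3) and 0.128 for Jun (-0.69 without 24 h replicate 2). Fos and Jund were each lost without 72 h replicate 2 (adjusted p = 0.137 and 0.101) or 3 (0.112 and 0.167), Foxa1 with all 32 arrays (0.0709) and Jun against control (0.0523). In late over early 3 of the 20 were lower and 1 higher, where 7.12% of all probes were called. Gata6, a factor of lung epithelial development, was higher at 0.77 ± 0.17 (adjusted p = 0.0106) and Jun lower at -0.61 ± 0.15 (adjusted p = 0.0168), both in all 20 omissions. Foxa3 was lower at -0.95 ± 0.26 (adjusted p = 0.0273) and Cebpb, a factor of inflammation and differentiation, at -0.84 ± 0.22 (adjusted p = 0.0235). Cebpb was lost without 24 h replicate 3 (0.0589), and Foxa3 without 1 h replicate 2 (0.0535), 48 h replicate 1 (0.055) or 3 (0.0543) or 72 h replicate 3 (0.0666).

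Markers of other cells also moved, and their part in the results on the members was not tested. The median over 8 neutrophil genes was 0.46 to 0.70 on the 1 h arrays, 0.55 to 0.82 at 3 h, 0.36 to 0.72 at 6 h, -0.14 to -0.01 at 16 h, 0.54 to 1.26 at 24 h, 0.46 to 0.62 at 48 h and 0.19 to 0.63 at 72 h, against -0.10 to 0.21 on the sham arrays. It lay above all sham arrays at 1, 3, 6, 24 and 48 h. The median of the 8 changes against sham was 0.40 at 3 h, 0.64 at 24 h, 0.09 at 48 h and 0.12 at 72 h. At 48 h 2 of the 8 genes were below 0, and at 72 h 3 were. Shares of all probes called were 2.98% at 3 h and 5.87% at 72 h. Among the 8 neutrophil genes Mmp8, neutrophil collagenase, was higher at 72 h (4.37 ± 0.69, adjusted p = 0.00167) in all 8 omissions of 1 array, well beyond the list median. Cxcr2, a chemokine receptor, was higher at 3 h (1.71 ± 0.47, adjusted p = 0.0475), a call that stood in 2 of 8 omissions, with 0.78 without 3 h replicate 1 (0.287) and 1.63 with all 32 arrays (0.145).

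The median over 6 macrophage genes was 0.04 to 0.48 on the 48 h arrays and -0.50 to 0.29 on the 72 h arrays, against 0.33 to 0.76 on the sham arrays. At 72 h 3 of the 6 were lower, where 5.87% of all probes were called: Ctsd (-1.28 ± 0.28, adjusted p = 0.012), Ctss (-1.18 ± 0.23, adjusted p = 0.00406) and Fabp4 (-1.11 ± 0.29, adjusted p = 0.0241). At 24 h Fabp4 was lower too (-1.17 ± 0.29, adjusted p = 0.0239), a call lost without sham replicate 3 (0.064) or 24 h replicates 1 (0.0627) or 3 (0.203). Ctss at 72 h stood in all 8 omissions, and Ctsd and Fabp4 were lost without 72 h replicate 2 (0.0856 and 0.0937) or 3 (0.084 and 0.174) and Fabp4 without sham replicate 3 (0.0567). Ctsd was also lost with all 32 arrays (-0.94, 0.152) and against control (-0.67, 0.218).

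The median of the 24 liver genes was -1.0 to 0.15 on the 48 h arrays and -0.73 to -0.46 on the 72 h arrays, against -0.76 to -0.48 on the sham arrays. F2, prothrombin, was higher at 3 h (1.14 ± 0.27, adjusted p = 0.0251), 24 h (0.96 ± 0.27, 0.0461), 48 h (1.14 ± 0.27, 0.0419) and 72 h (1.21 ± 0.27, 0.0118), calls that stood in 4, 1, 1 and 6 of 8 omissions and in none of the 4 with all 32 arrays (0.191 to 0.395). Fga, a fibrinogen chain, was lower at 72 h (-1.33 ± 0.32, adjusted p = 0.0178), and lost without 72 h replicate 2 (0.064) or 3 (0.184). The median change over the liver list was 0.25 at 3 h, 0.45 at 24 h, 0.07 at 48 h and 0.01 at 72 h. Shares of all probes called at these times were 2.98%, 3.52%, 1.18% and 5.87%.

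Among 11 general epithelial genes, Muc1 included, Cdh1, E-cadherin, was lower at 24, 48 and 72 h. The list median was -0.15, -0.06 and -0.24 at these times, with 5, 3 and 3 of the 11 genes above 0. Shares of all probes called were 3.52%, 1.18% and 5.87%. Cdh1 fell by 1.95 ± 0.33 at 24 h (adjusted p = 0.00255), by 1.56 ± 0.33 at 48 h (adjusted p = 0.0315) and by 1.72 ± 0.33 at 72 h (adjusted p = 0.00394). The 24 h call stood in all 8 omissions and the 72 h call in 7, being lost without 72 h replicate 3 (0.0618). The 48 h call stood in 3 of 8, being lost without sham replicate 1 (0.0708), 3 (0.0736) or 6 (0.0557) or 48 h replicate 2 (0.104) or 3 (0.0651), and with all 32 arrays (-1.39, 0.0603). Cldn7, a claudin of tight junctions, was lower at 72 h (-1.29 ± 0.29, adjusted p = 0.0129), and lost without 72 h replicate 2 (0.0863) or 3 (0.0917) and against control (-0.79, 0.154).

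Of 12 club and ciliated cell genes Fmo2, a monooxygenase of lung, was lower at 24 h (-1.62 ± 0.39, adjusted p = 0.0201) and 72 h (-1.81 ± 0.39, adjusted p = 0.00841), and Scgb1a1, the secretoglobin of club cells, at 72 h (-2.15 ± 0.54, adjusted p = 0.0221). These falls were smaller and not called against control (Fmo2 -0.66, 0.34 and -0.85, 0.247, and Scgb1a1 -1.54, 0.136) or with all 32 arrays (Fmo2 -1.26, 0.142 and -1.45, 0.0726, and Scgb1a1 -1.07, 0.562). The list median was -0.18 at 24 h and -0.19 at 72 h, with 6 and 4 of the 12 genes above 0. Shares of all probes called at these times were 3.52% and 5.87%. The 72 h calls were lost without 72 h replicate 2 (Fmo2 0.0863, Scgb1a1 0.119) or 3 (0.0674 and 0.121), and the 24 h call without sham replicate 3 (0.0547) or 24 h replicates 2 (0.113) or 3 (0.0977). In late over early both were lower in all 20 omissions (Fmo2 -1.79 ± 0.24, adjusted p = 0.000168, and Scgb1a1 -1.38 ± 0.34, adjusted p = 0.0168), Scgb1a1 not with all 32 arrays (0.213). Gsta1, a glutathione transferase, was lower in that contrast (-0.74 ± 0.21, adjusted p = 0.0323), a call that stood in 12 of 20 omissions, and had an adjusted p of 0.189 with all 32 arrays. The list median in late over early was -0.06, with 5 of the 12 genes above 0, where 7.12% of all probes were called.

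Of 8 type I pneumocyte genes Akap5 was lower at 3 h (-1.11 ± 0.23, adjusted p = 0.0128) and at 72 h (-0.98 ± 0.23, adjusted p = 0.0164). The list median was -0.02 at 3 h and -0.47 at 72 h, with 4 and 1 of the 8 genes above 0. Shares of all probes called at these times were 2.98% and 5.87%. With all 32 arrays Akap5 changed by -0.54 (0.626) and -0.41 (0.714), and the 72 h call was lost with quantile normalization (-0.76, 0.232) and without 72 h replicate 2 (0.121) or 3 (0.157). Of 11 endothelial genes Plvap, a protein of capillary diaphragms, was lower at 24 h (-1.20 ± 0.32, adjusted p = 0.0387), Car4, a capillary carbonic anhydrase, lower at 72 h (-2.14 ± 0.60, adjusted p = 0.035) and Kdr, a VEGF receptor, higher at 72 h (0.86 ± 0.24, adjusted p = 0.0383). Their calls stood in 2, 4 and 2 of 8 omissions, and none stood against control (-0.90, 0.112 for Plvap, -1.88, 0.102 for Car4 and 0.57, 0.22 for Kdr). The endothelial list median was -0.31 at 24 h and -0.33 at 72 h, with 3 and 2 of the 11 genes above 0. Shares of all probes called at these times were 3.52% and 5.87%. Car4 was -0.81 without 72 h replicate 3 (0.386) and with the median of spots above the floor (0.247). Edn1, endothelin 1, was lower in late than in early lungs (-0.71 ± 0.19, adjusted p = 0.0241; 0.0511 with all 32 arrays).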

How the data were processed

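Rat lung RNA and a common organ RNA pool were hybridised together on spotted arrays, 1 array a sample (32 samples). The authors deposited 1 log2 ratio of lung over pool per spot, and per the labels the pool came from untreated animals; it is said to hold 10 organs, of which 9 are named. No source used here gives the dyes, the scanner or the normalization. All deposited log2 ratios are logs of ratios in steps of 0.01 (within 0.001), with array medians of -0.38 to 0.06.

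Each array was centred on its median and the spots of a probe were averaged. The 6112 probes that every group measured on 2 or more of the 30 arrays were fitted with limma 3.58.1 (R 4.3.3, statmod 1.5.0), lmFit and eBayes, two-sided, over 9 groups at once. P-values were adjusted by Benjamini-Hochberg over all probes, and a probe was called at an adjusted p under 0.05. Errors of changes are SE and those of means SD. Late against early weights the 3 times on each side equally. Correlations used 100000 permutations. The fit was tested on simulated data.

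The members, the gene lists and the omission of 2 arrays were chosen with earlier results of these data known. Named genes are the members, called genes of each list (up to 4, by size), the 3 genes most correlated with each member and 5 liver genes for the 2 arrays left out. Pgc, Sftpd, Slc34a2, Nkx2-1 and the change of Lyz2 fall outside this rule and were chosen after their values were seen; some calls of list genes over the mean and in late against early are not described. Alternatives were all 32 arrays, no centring, quantile normalization, values needed in 2 groups, the median of spots above the floor of 0.05, eBayes with trend and robust, the replicate block and leaving out each array. The baselines of control and of sham with control were added after the data were seen.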

Additional observations from a re-analysis of the deposited data

Results flagged for a closer look

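Sftpa1 was marked because its level differed between times after bleeding by the test of that difference: late over early was -0.83, with a 95% interval of -1.32 to -0.33 (limma, adjusted p = 0.0381). The late arrays averaged 2.27 ± 0.65 (SD, n = 9) and the early arrays 3.04 ± 0.54 (SD, n = 11).

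Both arrays left out were marked for liver genes above the level of every other array, in data that the comparisons do not use. The median over 24 liver genes was 2.08 on 16 h replicate 3 and 2.75 on sham replicate 2. Alb, serum albumin, read 2.09 on 16 h replicate 3 and 2.62 on sham replicate 2, while the 30 arrays used spanned -4.82 to 0.01. Apob, the apolipoprotein of liver lipoproteins, read 1.22 on 16 h replicate 3 and 2.93 on sham replicate 2, against -3.80 to -1.40. Serpina1 and Cyp2e1 read 4.73 and 4.14 on 16 h replicate 3 and 3.60 and 4.01 on sham replicate 2.

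A test for a stray array within groups of 4 to 10 arrays found none among the 10 group and gene combinations tested, where chance gives about 1 in 20.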

How the results depend on the processing

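Of 430 member changes under other settings 368 kept direction and side of the threshold, 22 lost and 12 gained a call and 28 turned direction; with 1 array left out the numbers were 519, 28, 2 and 11 of 560. The cause was not tested. Few arrays a group limit all calls. Members called with all 32 arrays were 2 at 16 h and 0 at 48 h, at 72 h, over the mean, in late against early and in the joint test. Without centring 1 was called at 24 h. With quantile normalization 1 was called at 72 h and 0 over the mean. With values needed in 2 groups 1 was called at 72 h. With trend and robust options 0 were called at 48 h, 1 at 72 h, 0 in late against early and 0 jointly. Against control 1 was called at 6 h, 1 at 24 h, 0 at 48 and 72 h, 2 over the mean and 0 jointly. Against sham and control together 1 was called at 6 h, 0 at 48 h and 3 over the mean. Leaving out 1 array gave 0 to 1 members at 48 h, 0 to 2 at 72 h, 0 to 1 over the mean, 0 to 2 in late against early, 0 to 2 jointly and 0 otherwise.

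Replicate numbers did not pair the arrays: deviations of same-numbered arrays correlated at -0.43 to 0.35 (median -0.00), and 7 of 30 arrays correlated best with their own number. With the replicate block 0 members were called at 48 h, 1 at 72 h and 0 over the mean, in late against early and jointly, and Napsa at 1 h became -0.0074. Sftpb changed by -1.46 at 48 h (adjusted p = 0.0814) and by -1.03 over the mean (0.0527), Sftpc by -1.50 at 72 h (0.161) and Sftpa1 by -0.78 in late against early (0.0912).

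Directions that turned with all 32 arrays were Sftpb at 1 h (0.20), 3 h (0.31) and 6 h (0.047), Sftpa1 at 1 h (0.66), 6 h (0.43), 24 h (0.22) and over the mean (0.27), Sftpc at 6 h (0.51), 48 h (0.25) and over the mean (0.85), and sham over control for Sftpb (-0.19), Sftpa1 (-0.40) and Sftpc (-0.78). Without centring, which moved the median of all probes at 24 h (-0.15, against 0.04 with centring), Napsa at 1 h was -0.041 and Sftpc at 24 h -0.055. With quantile normalization Sftpc was -0.56 at 3 h and -0.35 at 24 h and Sftpa1 -0.64 at 3 h. Against control Sftpb was 0.0022 at 1 h, 0.12 at 3 h and 0.40 at 16 h, Sftpa1 0.26 at 1 h and 0.032 at 6 h, Napsa -0.32 at 1 h and Sftpc 0.069 over the mean. Against both together Sftpa1 was 0.031 and Napsa -0.11 at 1 h. Leaving out 1 array moved Muc1 at 72 h over -0.32 to 0.056, Napsa at 1 h over -0.19 to 0.15, Sftpa1 at 1 h over -0.42 to 0.091, and Sftpc over -0.54 to 0.026 for the mean, -0.13 to 0.43 at 24 h and -0.078 to 0.60 at 16 h.

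Calls over all probes were 182 at 3 h (29 with all 32 arrays, 69 with the block, 395 against control, 562 against both), 0 at 6 h (3 with quantile, 253, 395), 4 at 16 h (106 with all 32 arrays, 16 without centring, 1 with values in 2 groups, with trend and robust and against control, 28 against both), 215 at 24 h (118 with all 32 arrays, 436 without centring, 554, 612), 72 at 48 h (8 with all 32 arrays, 185 with quantile, 3 with the block, 32, 139) and 359 at 72 h (189 with all 32 arrays, 127 with the block, 548 against both). They were 208 over the mean (112 with the block, 493, 1192), 435 in late against early (187 with all 32 arrays, 257 with the block) and 346 jointly (144 with all 32 arrays, 77 with the block, 885 against both). Leaving out 1 array gave 0 to 3 at 1 h, 45 to 565 at 3 h, 0 to 116 at 6 h, 0 to 20 at 16 h, 29 to 336 at 24 h, 2 to 107 at 48 h, 42 to 482 at 72 h, 64 to 374 over the mean, 223 to 586 in late against early and 129 to 582 jointly.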

Other observations

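The genes whose centred ratios followed each member most closely over the 30 arrays were read from 5096 probes, as a description with no test, since values share an array. Lyz2, a lysozyme of macrophages and, in mouse, of type II cells, had the highest Pearson's r with Sftpc (0.83), ahead of Tmem14c (0.80) and Rpl4 (0.77), a ribosomal protein gene. Lyz2 itself changed by -1.72 ± 0.62 at 72 h (limma, adjusted p = 0.097), a value looked up after its correlation was seen. For Sftpa1 the closest were Hopx (0.80), a homeodomain gene used as a type I pneumocyte marker, Ube2d2 (0.79) and Cd59b (0.79). Hopx was lower in late than in early lungs by -1.13 ± 0.24 (limma, adjusted p = 0.00897; 0.0942 with all 32 arrays). For Sftpb they were Rpl36 (0.79), Krt5 (0.77), a basal cell keratin, and Khk (0.74). For Napsa they were Prrt1 (0.84), Thrsp (0.82) and Nherf2 (0.80), and for Muc1 Vom1r105 (0.77), Cyth2 (0.75) and Pnoc (0.74).

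The 2 spots of a member probe differed by a median of 0.09 for Sftpc, 0.10 for Sftpb, 0.09 for Sftpa1, 0.19 for Napsa and 0.15 for Muc1 on the log2 scale. The residual SD between arrays of a group was 0.71, 0.44, 0.55, 0.37 and 0.39 in the same order, against a median of 0.44 over all probes.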
